A study of Mus musculus with 5 samples.

Results

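The genes described here are those of MHC class I antigen presentation and the immunoproteasome, followed by RNA Polymerase II ChIP-Seq in mouse Th2 cells. They were chosen by name as 10 genes, H2-K1, H2-D1, B2m, Tap1, Tap2, Tapbp, Psmb8, Psmb9, Psmb10 and Nlrc5, and a row of the gene table was taken where its name matched and its coordinates lay on the mm9 locus of that gene. Of the 10 genes 9 had such a row, among 11608 genes in the table and 8551 genes that any of the 4 ChIP libraries marked with an enriched interval. No row carried the name Nlrc5. The 9 genes lay in 6 separate active regions, which are enriched intervals merged over libraries, because Psmb9, Tap1, Psmb8 and Tap2 shared 1 region and therefore 1 set of values.

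The study asked how PARP-14 and ADP-ribosyltransferase activity affect active transcription in Th2 cells, using an antibody against the polymerase phosphorylated at serine 2. Naïve CD4+ CD62L+ T cells came from spleens of C57BL/6 mice, *Parp14*+/+ (wild type) or *Parp14*−/− (knockout), aged 6 to 8 weeks. All cultures were activated through CD3 and CD28 for 3 days with IL-4 at 10 ng/ml and an antibody against IFN-γ, and were then expanded for 4 days in IL-2 and IL-4. The 4 ChIP libraries, 1 per condition, were wild type, wild type + PJ34, knockout and knockout + PJ34, and an Input library mixed both genotypes. PJ34 is an inhibitor of several ADP-ribosyltransferases, present during culture at 5 µM per the methods of the study and added to differentiated cells at 10 µM per the sample labels. The labels do not say how many mice were pooled in a culture.

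MHC class I molecules present peptides from inside the cell to CD8 T cells. A heavy chain such as H2-K or H2-D pairs with β2-microglobulin, the peptides are cut by proteasomes and pumped into the endoplasmic reticulum by the TAP transporter, and tapasin holds the empty molecule at the transporter until a peptide fits. Interferons raise most of these genes and exchange the catalytic subunits of the constitutive proteasome for those of the immunoproteasome, and Nlrc5 is the transactivator that acts on class I promoters.

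The value of a gene was its average peak height, the mean over its active regions of the highest pile-up of fragments. Each of the 9 genes had 1 active region, so its value was a whole number of overlapping fragments. Every library had been reduced to the same number of alignments by the authors. The heights summed over all active regions of the genes in the table came to 218325 in wild type, 226678 in wild type + PJ34, 219553 in knockout and 203834 in knockout + PJ34. The median height over genes with an interval was 9.25, 10, 9 and 8.50 in the same order. Intervals of heights are exact Poisson and those of ratios exact binomial (Clopper-Pearson), both at a nominal 95%. They treat each height as a plain count, although it is the highest point of a region, picked in each library. Their true coverage for such highest points was not measured. The intervals cover counting error only, no library was repeated, and no difference between conditions has a replicate check.

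Parp14 itself had a height of 8 in wild type, 11 in wild type + PJ34, 6.67 in knockout and 6.67 in knockout + PJ34. Enriched intervals covered 22873 bp of the gene in wild type and 20836 bp in wild type + PJ34, against 2686 bp in knockout and 3286 bp in knockout + PJ34. The covered length thus followed the genotype labels in all 4 libraries.

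The cells were checked against markers. All 8 T cell markers (Cd3d, Cd3e, Cd3g, Cd247, Lck, Cd28, Cd5 and Cd6) had an interval in at least 1 library, and their summed height was 110 in wild type, 128 in wild type + PJ34, 114 in knockout and 99.5 in knockout + PJ34, with Cd247 highest. Cd4 and Zbtb7b, which mark the CD4 lineage, summed to 12.5, 14, 10 and 13 in the same order, with Zbtb7b higher on average. The 6 Th2 markers (Gata3, Il4, Il5, Il13, Ccr4 and Ccr8), highest on average for Gata3, summed to 229 in wild type, 198 in wild type + PJ34, 140 in knockout and 114 in knockout + PJ34. The sum was lower in both knockout libraries. Of the 6 markers 5 had a wild type to knockout ratio above 1, against 49.0% of all genes, and none was below 1, against 42.6%. The ratio was above 1.4 for 3, against 12.7% of all genes, and the median was 1.72. Th1 markers (Tbx21, Ifng and Il12rb2, highest for Il12rb2, which shared its values with Serbp1) summed to 87, 67, 72 and 56, while no row was found for Cxcr3.

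Markers of other cells were then read in the same library order. Cd8a had no interval in any of the 4 libraries, at heights of 4, 6, 3 and 4, and no row was found for Cd8b1. Of the B cell markers Cd79b, Ms4a1, Pax5 and Blk had no interval, and Cd79a had 38, 36, 34 and 28, which were also the values of its neighbour Rps19. Of the myeloid list no row was found for Lyz2, Cd14, Itgax and Cebpa, and Csf1r and Itgam had a sum of 9, 12.5, 6 and 7.5, Csf1r higher and Itgam without an interval and at 0 in knockout. Of the NK list no row was found for Ncr1, Klrb1c and Klrd1, and Eomes had 3.50, 4.50, 7.50 and 6. Of the erythroid list no row was found for Gata1 and Hba-a1, and Klf1, which had no interval and the values of Dnase2a, had 7, 7, 4 and 7. The part of these markers in the results below was not tested. In such bulk cultures fewer cells of a type and less polymerase per cell cannot be told apart.

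The order of the 4 libraries differed between the antigen presentation genes. B2m was higher in both knockout libraries, and H2-K1 stood out in knockout + PJ34 alone. The Psmb9 to Tap2 region and the region of Tapbp and its neighbours were highest in knockout without PJ34. Psmb10 was near the median gene throughout.

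**Figure D1:**
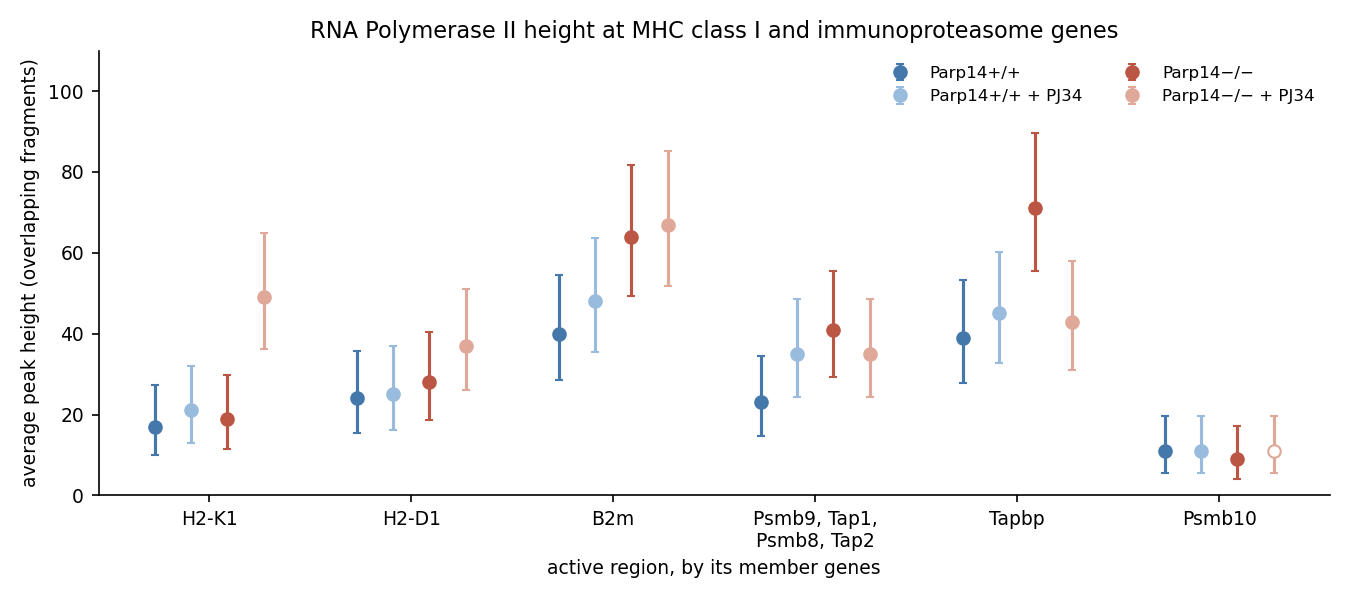
Average peak height, in overlapping fragments, of the 6 active regions that hold the 9 genes, in the 4 libraries (colours), with 95% Poisson intervals of the heights taken as counts. The open circle marks a library without an enriched interval over the gene. H2-K1 reached 49 in knockout + PJ34 against 17 to 21 in the other libraries, and Tapbp reached 71 in knockout against 39 to 45.

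H2-K1 encodes the classical heavy chain H2-K and lies on the minus strand at chr17:34132957-34137278 (mm9, gene identifier 14972). Its height was 17 in wild type, 21 in wild type + PJ34, 19 in knockout and 49 in knockout + PJ34. The first 3 libraries lay close together, and their Poisson intervals reached at most 32.1, below the lower bound of 36.3 in knockout + PJ34. In the order of all genes with an interval, 80.2%, 86.3%, 83.5% and 98.1% were lower.

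For H2-K1 the wild type to knockout ratio was 0.895 (0.437 to 1.82), and that of wild type + PJ34 to knockout + PJ34 was 0.429 (0.244 to 0.728). Without PJ34 the genotypes were not distinguishable at this depth, and with PJ34 the interval lay below 1. Among all genes with an interval 0.433% had a lower ratio in the treated pair. Within knockout the ratio of untreated to treated was 0.388 (0.216 to 0.671), where 0.258% of genes were lower, and within wild type it was 0.810 (0.401 to 1.61). The difference between these effects was not tested, and the comparisons share libraries.

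The highest point of H2-K1 lay in its coding sequence at chr17:34137185, 93 bp into the gene, in wild type + PJ34, knockout and knockout + PJ34. In wild type it lay at chr17:34132561, 396 bp past the 3′ end. The interval around the gene was 6900 bp long in wild type, 7500 bp in wild type + PJ34, 7650 bp in knockout and 9450 bp in knockout + PJ34, and covered the whole gene in each.

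H2-D1, the other classical heavy chain gene of this strain, lies on the plus strand at chr17:35400039-35404442 (gene identifier 14964). Its height was 24 in wild type, 25 in wild type + PJ34, 28 in knockout and 37 in knockout + PJ34. The order was that of B2m, but the spread was small and all 4 Poisson intervals overlapped. Its active region of 33150 bp also held Bat1a, an RNA helicase gene, with the same 4 values. The value of 24 in wild type was that of an interval over Bat1a, with its highest point at chr17:35391777, while the own interval of H2-D1 reached 22.

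For H2-D1 the wild type to knockout ratio was 0.857 (0.476 to 1.53), and that of wild type + PJ34 to knockout + PJ34 was 0.676 (0.390 to 1.15). Neither differed from 1 beyond counting error. In knockout and knockout + PJ34 the highest point lay 26 bp inside the gene, in coding sequence. In wild type it lay 903 bp past the 3′ end, the same kind of shift as at H2-K1.

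Class I heavy chain genes resemble one another, which limits how many short reads can be placed. Of all stretches of 36 nt, the read length of the study, 61.1% in H2-K1 and 57.7% in H2-D1 occurred once in the mouse genome (NCBIM37), against 88.8% in Tapbp, 92.9% in Tap2, 93.7% in Psmb9, 93.9% in Tap1, 96.1% in B2m, 96.5% in Psmb8 and 100% in Psmb10. The heights of H2-K1 and H2-D1 are therefore uncertain as levels. The effect of read placement on their ratios was not tested.

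B2m encodes β2-microglobulin, the light chain of every class I molecule, and lies on the plus strand at chr2:121973423-121978818 (gene identifier 12010). Its height was 40 in wild type (Poisson interval 28.6 to 54.5), 48 in wild type + PJ34 (35.4 to 63.6), 64 in knockout (49.3 to 81.7) and 67 in knockout + PJ34 (51.9 to 85.1). Both knockout libraries lay above both wild type libraries, and treated and untreated cells of a genotype differed less than the genotypes did. B2m was high in every library, with 96.7%, 98.2%, 98.8% and 99.2% of genes lower.

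For B2m the wild type to knockout ratio was 0.625 (0.410 to 0.942), and with PJ34 in both it was 0.716 (0.484 to 1.05). In wild type the untreated to treated ratio was 0.833 (0.534 to 1.29), and in knockout it was 0.955 (0.667 to 1.37). The highest point lay 18 bp inside the gene in wild type, wild type + PJ34 and knockout + PJ34, in the UTR, and 82 bp inside it in knockout, in coding sequence. The annotation also places an intron of Patl2, on the other strand, over these points, and the reads do not tell the strands apart. The interval over B2m ran for 13500 bp in wild type, 19950 bp in wild type + PJ34, 18300 bp in knockout and 18900 bp in knockout + PJ34.

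Psmb9, Tap1, Psmb8 and Tap2 stand side by side in the class II region of the MHC. Psmb9 and Psmb8 encode catalytic subunits of the immunoproteasome, and Tap1 and Tap2 the subunits of the peptide transporter. They lie at chr17:34319044-34324275, chr17:34324825-34333744, chr17:34335344-34338211 and chr17:34341511-34353266, the first on the minus strand and the others on the plus strand (gene identifiers 16912, 21354, 16913 and 21355). Their shared active region ran for 40650 bp.

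The height of this region was 23 in wild type, 35 in wild type + PJ34, 41 in knockout and 35 in knockout + PJ34. wild type was the lowest, and the other 3 libraries lay close together with Poisson intervals from 24.4 to 55.6. The ratio of wild type to knockout was 0.561 (0.321 to 0.957), lower in 3.33% of genes. With PJ34 in both it was 1 (0.608 to 1.65). The ratio of wild type to wild type + PJ34 was 0.657 (0.371 to 1.14), and that of knockout to knockout + PJ34 was 1.17 (0.728 to 1.89).

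The 4 genes cannot be told apart in the gene table, but the tracks of single libraries separate them in part. The highest point of the region lay within 41 bp of an annotated start of Psmb8 in all 4 libraries, at chr17:34334689, chr17:34334625, chr17:34334753 and chr17:34334705 in the order above. A single interval held this point together with all of Psmb9 and Tap1, with a length of 21150 bp in wild type, 22650 bp in wild type + PJ34, 23250 bp in knockout and 22200 bp in knockout + PJ34. The value of the region is thus a height at Psmb8, and none is available for Psmb9 and Tap1 on their own.

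Tap2 had intervals of its own, which reached 11 in wild type, 12 in wild type + PJ34, 16 in knockout and 14 in knockout + PJ34. wild type was again the lowest, at heights where counting error is large. In wild type + PJ34, knockout and knockout + PJ34 the highest point lay in the annotated UTR at the start of Tap2, and in wild type in an intron 5914 bp downstream. Intervals covered 93.6%, 100%, 79.6% and 92.3% of Tap2 in the order above, so knockout had the highest point and the shortest cover.

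Tapbp encodes tapasin, which bridges class I molecules and the TAP transporter, and lies on the plus strand at chr17:34056423-34066235 (gene identifier 21356). Its height was 39 in wild type, 45 in wild type + PJ34, 71 in knockout and 43 in knockout + PJ34. knockout stood above the other 3 libraries, which lay close together. Its wild type to knockout ratio was 0.549 (0.362 to 0.823), and 2.93% of genes were lower. With PJ34 in both it was 1.05 (0.674 to 1.63). The ratio of knockout to knockout + PJ34 was 1.65 (1.12 to 2.47).

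This value does not belong to Tapbp alone. Its active region of 24150 bp also held Daxx and Zbtb22 with the same 4 values, and its highest point lay 198 to 326 bp past the 3′ end of Tapbp. There the annotation places the start of Rgl2, a Ral exchange factor gene, at most 94 bp away. The values of Rgl2, a mean over 3 active regions, were 29.3, 30, 39.3 and 31.7 in the order above. The intervals next to the annotated upstream start of Tapbp reached 19 in wild type, 17 in wild type + PJ34, 16 in knockout and 14 in knockout + PJ34, the last with its highest point at chr17:34047041 in Daxx. These upstream intervals ended before the coordinates given above for Tapbp and also held the start of Zbtb22, at chr17:34053174. Their heights were not higher in knockout, but they are not values of Tapbp alone. Intervals covered 55.4% of Tapbp in wild type and 100% in each of the other 3 libraries.

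**Figure D2:**
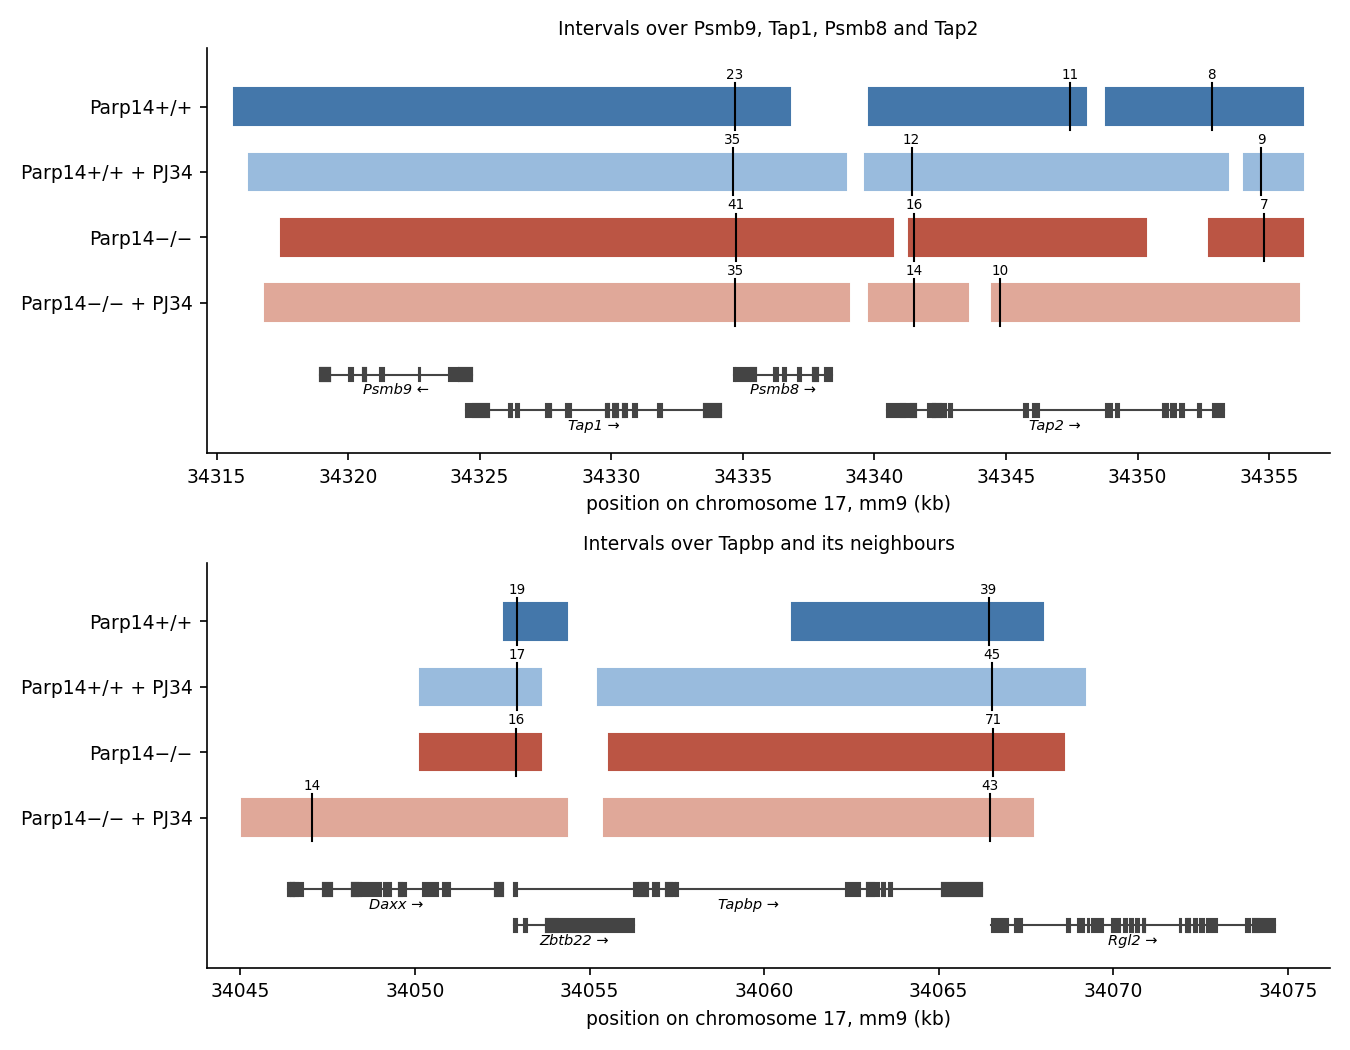
Enriched intervals (bars) of the 4 libraries over the Psmb9 to Tap2 region and over Tapbp with its neighbours, on chromosome 17 of mm9 in kb. Black ticks mark the highest point of each interval with its height, and gene models show exons as boxes and direction as arrows. The highest points of 23, 35, 41 and 35 stand at the start of Psmb8, and those of 39, 45, 71 and 43 stand past the end of Tapbp.

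Psmb10 encodes the remaining catalytic subunit of the immunoproteasome and lies away from the MHC, on the minus strand at chr8:108459664-108462005 (gene identifier 19171). Its height was 11 in wild type, 11 in wild type + PJ34, 9 in knockout and 11 in knockout + PJ34. The 4 libraries differed by less than counting error, and knockout + PJ34 had no interval over the gene. The ratio of wild type to knockout was 1.22 (0.460 to 3.34). Ctrl and Lcat had the same values from the same active region, and in knockout the highest point lay 1583 bp past the 3′ end of Psmb10, near the start of Ctrl. With 45.7% to 63.6% of genes lower, Psmb10 sat in the middle of the genes with an interval.

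Nlrc5, the class I transactivator, had no row under its name. A row labelled AI451557, whose transcript RefSeq assigns to Nlrc5, spans only 2198 bp at the end of the locus, at chr8:97048967-97051164. Its height was 12 in wild type, 15 in wild type + PJ34, 18 in knockout and 14 in knockout + PJ34, with a ratio of wild type to knockout of 0.667 (0.293 to 1.46). It was lowest in wild type and highest in knockout, as the Psmb9 to Tap2 region was, but the interval of the ratio held 1. In knockout the highest point lay 5453 bp past the end of the locus, near the start of Cpne2, which shares the region. Over the whole locus of 54510 bp, intervals covered 77.4% in wild type, 81.8% in wild type + PJ34, 96.1% in knockout and 93.7% in knockout + PJ34, more in both knockout libraries. This row was kept out of the counts that follow.

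Fold limits, a ratio above 1.4 or below 0.7, were then applied to the 9 genes and to all genes with an interval. The study used these for the genotypes, with narrower limits of 1.2 and 0.83 for highly transcribed genes and for PJ34 within a genotype. Of the 9 genes 6 had a wild type to knockout ratio below 0.7 (B2m, Psmb9, Tap1, Psmb8, Tap2 and Tapbp), where 11.0% of 8538 genes did. None was above 1.4, where 12.7% of genes were. Counted by active region it was 3 of 6, against 14.9% of 2609 regions. Both counts include Tapbp, whose value is a height next to the start of Rgl2. The heights next to the annotated upstream start of Tapbp were 19 in wild type and 16 in knockout. They come from intervals that also held the start of Zbtb22, so they give no value for Tapbp alone either. The median ratio was 0.561 over the 9 genes, 0.741 over the 6 regions and 1 over all genes. The counting interval of the ratio lay below 1 for the same 6 genes, 3 regions, and for 2.08% of all genes, and above 1 for none of them and 1.02% of all genes. Such an interval clears 1 more easily at greater height. The median gene had a height of 9.25 in wild type and 9 in knockout, and these 6 genes had 23 to 71. Shares of all genes with an interval clear of 1, here and below, are therefore not shares among genes of like height.

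**Figure D3:**
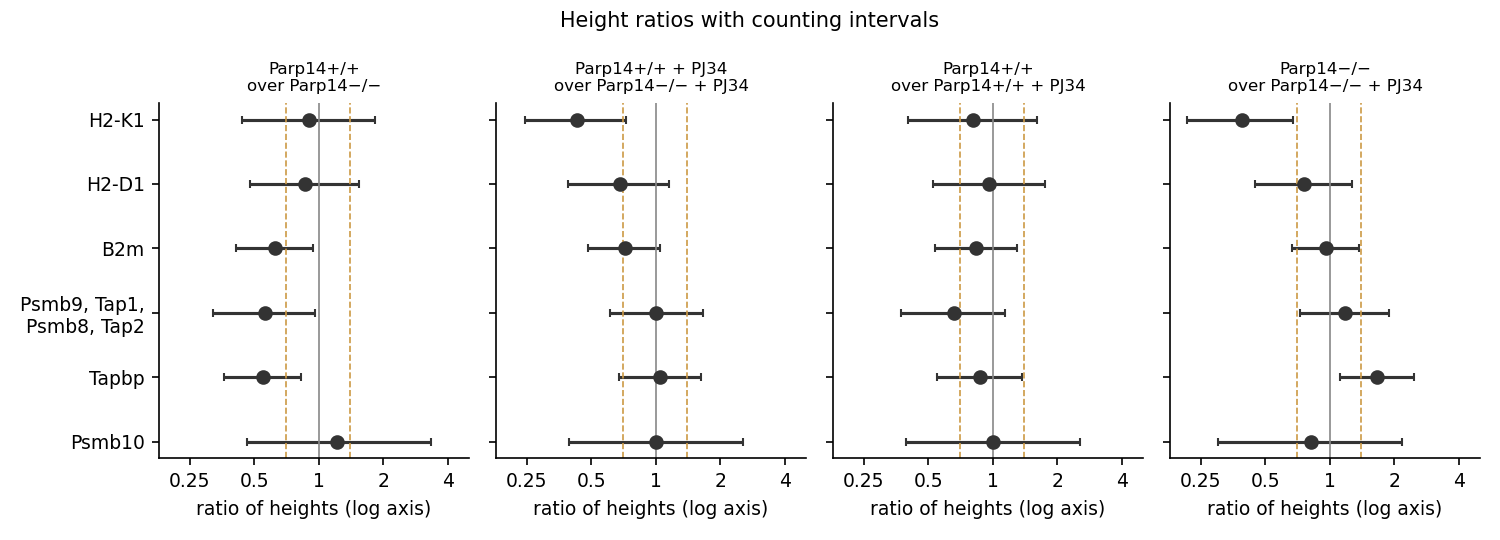
Ratio of average peak heights in the 4 comparisons (panels, log axis) for the 6 active regions, with 95% binomial intervals. The grey line marks a ratio of 1 and the dashed lines the fold limits of 0.7 and 1.4. Without PJ34, B2m, the Psmb9 to Tap2 region and Tapbp lay below 0.7, and with PJ34 H2-K1 and H2-D1 did.

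With PJ34 in both genotypes other genes passed these limits on the deposited scale. The difference from the untreated pair was not tested. H2-K1 and H2-D1, the 2 heavy chain genes, had a wild type + PJ34 to knockout + PJ34 ratio below 0.7, against 5.80% of 8540 genes and 9.81% of active regions, and none of the 9 was above 1.4, against 22.6%. The interval of the ratio lay below 1 for H2-K1 alone, and for 0.772% of all genes, and above 1 for none of the 9 and 2.71% of all genes. Over all genes the median ratio to wild type was 0.909 in knockout + PJ34 and 1.04 in wild type + PJ34. In the treated pair the median ratio of all genes was 1.14 (log2 0.19), and the median of the 9 genes was 1. After each library was scaled by its median ratio to wild type over all genes, the ratios were 0.374 for H2-K1, 0.589 for H2-D1, 0.624 for B2m, 0.872 for the Psmb9 to Tap2 region, 0.912 for Tapbp and 0.872 for Psmb10, all below 1, whereas on the deposited scale Tapbp was above 1 at 1.05 and the Psmb9 to Tap2 region and Psmb10 were at 1. Of the 9 genes 3 were then below 0.7, against 12.2% of genes, and none was above 1.4, against 12.5%.

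PJ34 was also compared within each genotype. Of the 9 genes 4 had a wild type to wild type + PJ34 ratio below 0.7, all of them in the Psmb9 to Tap2 region, against 10.9% of genes, and none was above 1.4, against 7.20%. No counting interval of these ratios lay below 1, against 0.924% of genes, or above 1, against 0.690%. The 9 ratios lay between 0.657 and 1, their median was 0.810, and that of all genes was 0.959. Apart from Psmb10 at 1, all lay below 1 on the deposited scale, and after the same scaling H2-D1 was at 1.00 and Psmb10 at 1.04. The scaled shares of all genes were 9.50% below 0.7 and 9.53% above 1.4, and the members past the limits stayed 4 and 0. With the highest point of each gene's own intervals the ratio of Tap2 was 0.917, and the count below 0.7 was 3.

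In knockout the ratios of the genes lay on both sides of 1. H2-K1 had a knockout to knockout + PJ34 ratio below 0.7, against 6.29% of genes, and Tapbp one above 1.4, against 15.1%. The interval of H2-K1 lay below 1, as it did for 0.292% of genes, and that of Tapbp lay above 1, as it did for 1.37%. The Tapbp value is a height next to the start of Rgl2. Upstream of Tapbp the heights were 16 in knockout and 14 in knockout + PJ34, the latter at a point in Daxx. Both come from intervals that also held the start of Zbtb22. The 9 ratios ran from 0.388 to 1.65. All genes had a median ratio of 1.08 (log2 0.12). After scaling H2-K1 was at 0.353, H2-D1 at 0.688, Psmb10 at 0.744, B2m at 0.868, the Psmb9 to Tap2 region at 1.06 and Tapbp at 1.50, so that 2 of the 9 were below 0.7, against 10.7% of genes, and 1 above 1.4, against 8.82%. The 4 comparisons share libraries, so that 1 high or low library enters 2 of them.

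The constitutive subunits that the immunoproteasome replaces were read in the same way. Psmb5 had heights of 4, 6, 3 and 4 in wild type, wild type + PJ34, knockout and knockout + PJ34, Psmb6 of 10, 9, 7 and 6, and Psmb7 of 15, 18, 13 and 10. All 3 were lower in each knockout library than in the wild type library of the same treatment. Their median wild type to knockout ratio was 1.33, with 1 of 3 above 1.4 (Psmb6, 1.43 with an interval of 0.491 to 4.42), against 12.7% of all genes. With PJ34 it was 1.50, with 3 of 3 above 1.4, against 22.6% of all genes, and after scaling it was 1.31, with 1 of 3 above, against 12.5%. None of these intervals was clear of 1. The proteasome activator genes Psme1 and Psme2 shared values with Emc9, at 10, 12, 11 and 11, and their wild type to knockout ratio was 0.909 (0.346 to 2.36).

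Of the chaperones of peptide loading Calr, the calreticulin gene, was the highest at 54 in wild type, 49 in wild type + PJ34, 43 in knockout and 41 in knockout + PJ34, values it shared with Gadd45gip1. Canx, the calnexin gene, had 12, 11.8, 6.75 and 8.50. Its wild type to knockout ratio was 1.78 (1.09 to 2.96), the opposite direction to B2m. Pdia3 had 11, 8.50, 7 and 10, and the trimming enzyme Erap1 had 7.60, 7, 8.2 and 8. Over the 5 genes, which include Tapbpl, the median wild type to knockout ratio was 1.26, with 2 of 5 above 1.4, against 12.7% of all genes, and none below 0.7, against 11.0%. With PJ34 it was 1, and 0.872 after scaling.

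Of 19 non-classical class I genes 8 had a row and 2 an interval. H2-T24, the highest, had 15 in wild type, 14.5 in wild type + PJ34, 18.5 in knockout and 24.5 in knockout + PJ34. H2-T23, the Qa-1 gene, had 12, 12, 14 and 17. Both were highest in knockout + PJ34, as the classical genes H2-K1 and H2-D1 were. The wild type + PJ34 to knockout + PJ34 ratio was 0.592 (0.361 to 0.956) for H2-T24 and 0.706 (0.308 to 1.57) for H2-T23. None of those with a row but no interval was highest in knockout + PJ34 alone. H2-T10 had 5, 7, 8 and 3, H2-T22 had 4, 6, 5 and 6, and H2-Q6 had 6, 10.5, 8 and 7. H2-Q7 had 4, 7, 6 and 5, H2-Q8 had 4, 3, 1 and 4, and H2-M3 had 5, 7, 10 and 9. Read placement was not measured for these genes.

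Among regulators of class I genes Irf1, an interferon-induced activator of class I and immunoproteasome genes, was the highest on average at 86 in wild type, 110 in wild type + PJ34, 144 in knockout and 119 in knockout + PJ34. It was lowest in wild type and highest in knockout, with a wild type to knockout ratio of 0.597 (0.452 to 0.785) and, with PJ34, of 0.924 (0.707 to 1.21). Rfx5, part of the complex that binds class I and class II promoters, had 12, 12, 10 and 11. The regulators as a whole are not summarised here, and these genes do not stand for them.

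Ciita, the class II counterpart of Nlrc5, had no interval, at 7, 7, 5 and 11. Of 10 class II genes 3 had an interval. Cd74, the invariant chain gene, had 13, 10, 10 and 11. H2-DMa was highest at 47, 53, 61 and 53, values shared with Brd2 and with other class II genes of 1 region. The other 7 class II genes had no interval of their own.

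The genes whose 4 heights were closest in pattern to the mean of the 8 genes with an interval in all libraries were sought among 1110 genes with a mean height of at least 20. That mean pattern, in log2 relative to each gene's own mean, was −0.44 in wild type, −0.03 in wild type + PJ34, 0.22 in knockout and 0.25 in knockout + PJ34. Among the closest were Sod1 (Euclidean distance 0.0757), Txnip (0.0907), Clec2d (0.0943) and Mcl1 (0.118). Mcl1, a survival gene, had 49 in wild type, 58 in wild type + PJ34, 72 in knockout and 75 in knockout + PJ34. Of the 8 averaged genes 4 are the Psmb9 to Tap2 region with identical values, which therefore weighs most in the mean. The likeness rests on 4 libraries and is a description.

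Promoter sequence was available from RefSeq (GRCm38.p6) for 8 of the 10 genes, as the 250 bases before the start, and is shown for B2m, H2-K1 and H2-D1, whose polymerase peak lay next to the start that the window precedes in at least 3 of the 4 libraries. The Psmb8 window precedes another start than the one at the peak and is not shown. Short motifs were searched on both strands there and in all 32851 promoters of the table. TGACG, the core of the cyclic AMP response element found in class I promoters, was present in 5 of the 8 genes (B2m, H2-D1, H2-K1, Psmb9 and Tap1) and in 17.8% of all promoters. CCAAT was present in 6 of 8 (the same 5 and Tapbp) and in 33.8% of all. A kappa B like motif, GGG with a gap of 2 bases and TTCC, was present in H2-D1 and H2-K1 and in 4.98% of all. The interferon response element core, GAAA with a gap of 2 bases and a further GAAA, was present in B2m alone and in 2.98% of all. Only this exact spelling was searched, so a window without a match may still hold a looser form. The windows of H2-K1 and H2-D1 both hold tttcacttct, which the exact search does not count. TTC and GAA with a gap of 3 bases, a STAT motif, was present in Psmb8 and in 7.02% of all, and with a gap of 4 bases in Psmb10 and in 5.85% of all. Psmb9 and Tap1 start next to each other on opposite strands, so their windows overlap and hold the same TGACG and CCAAT matches. A match describes the letters of this window and does not make it a site. Capitals mark every motif match.
B2m, chr2:122147437-122147686, plus strand: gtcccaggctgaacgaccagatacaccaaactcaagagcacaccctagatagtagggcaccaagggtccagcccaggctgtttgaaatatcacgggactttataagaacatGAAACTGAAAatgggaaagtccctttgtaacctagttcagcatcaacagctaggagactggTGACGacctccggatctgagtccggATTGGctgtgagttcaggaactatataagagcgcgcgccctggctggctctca
H2-K1, chr17:34000334-34000583, minus strand: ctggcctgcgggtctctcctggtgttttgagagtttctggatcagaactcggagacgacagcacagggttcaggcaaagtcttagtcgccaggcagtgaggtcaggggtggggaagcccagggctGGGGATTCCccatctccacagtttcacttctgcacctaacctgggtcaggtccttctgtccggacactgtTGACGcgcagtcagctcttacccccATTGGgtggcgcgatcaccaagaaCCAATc
H2-D1, chr17:35262844-35263093, plus strand: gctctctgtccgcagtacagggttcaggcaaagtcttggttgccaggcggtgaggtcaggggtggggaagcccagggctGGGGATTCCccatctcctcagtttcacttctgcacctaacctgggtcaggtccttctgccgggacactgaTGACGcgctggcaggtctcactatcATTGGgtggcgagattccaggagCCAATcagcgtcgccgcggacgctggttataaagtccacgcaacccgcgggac

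H2-K1 and H2-D1 had the same motifs in the same order from their upstream side, the kappa B like motif, TGACG and CCAAT, with a further CCAAT downstream. In H2-K1 the first 3 began at −125, −55 and −30 from the start shown, and in H2-D1 at −171, −101 and −76. B2m had GAAA with its gap at −139, TGACG at −78 and CCAAT at −53. The GC content was 58% for the H2-K1 window, 60.8% for H2-D1, 50.8% for B2m and had a median of 52.4% over all promoters.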

How the data were processed

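RNA Polymerase II ChIP-Seq of 4 Th2 cultures, 1 library each, was analysed. The authors mapped reads of 36 nt to mm9, removed duplicates, equalised depth and called intervals per library with SICER (per the labels, with no version) against the Input. The deposited gene table gives the signal of each gene and library, a mean of fragment pile-up heights, and other deposited columns give interval calls, active regions and highest points. The table holds 8 columns of values for libraries that were not analysed here.

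Gene names were checked against coordinates. Of 9205 rows whose name is in the annotation (GENCODE on NCBIM37, the assembly of mm9) 2481 carry a name that lies elsewhere, 2477 of them rows without an interval in wild type. In those rows 532 of 532 interval calls lay at the coordinates of the row and 182 also at the locus of the name, so values belong to coordinates. The 9 rows used here fit by name, transcript and locus. Genes of the lists were found by name or RefSeq transcript together with locus, and 18 of 73 stand under a name that belongs to another locus.

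Ratios were taken without a pseudocount. The genes and lists were chosen with earlier results of these data known. Genes named are the 10, a fixed part of each list and its highest gene, genes sharing a region and genes most similar in pattern. Alternatives covered scaling, a pseudocount of 1, own intervals, a minimum summed height of 20, regions counted once, covered length and fold limits. Interval code was tested on simulated Poisson counts of fixed mean, not on highest points picked within a region. Python 3.11.15, numpy 2.4.6, scipy 1.17.1, pandas 2.3.3 and matplotlib 3.10.9 were used.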

Additional observations from a re-analysis of the deposited data

Results flagged for a closer look

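On the deposited scale PJ34 went with opposite directions in the 2 genotypes at 2 active regions. For Psmb9, Tap1, Psmb8 and Tap2 the ratio of untreated to treated was 0.657 in wild type and 1.17 in knockout, and after scaling of the libraries 0.685 and 1.06. For Tapbp it was 0.867 in wild type and 1.65 in knockout, and after scaling 0.904 and 1.50. The difference between the genotypes was not tested.

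The genotype ratio of Tapbp also lay on opposite sides of 1, at 0.549 without PJ34 and 1.05 with it. After scaling the second value was 0.912, on the same side as the first. This difference was not tested either. The Tapbp values come from a highest point at the start of Rgl2, so they may not be values of Tapbp.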

How the results depend on the processing

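Of 64 recomputed counts and medians 57 stayed within their limits and 7 did not. Counting each active region once changed the number of genes past the fold limits from 6 to 3 for wild type over knockout and from 4 to 1 for wild type over wild type + PJ34, because 4 genes share a region. With the covered length of the gene in place of height the counts were 2 for wild type over knockout, 0 for wild type + PJ34 over knockout + PJ34, 3 for wild type over wild type + PJ34 and 0 for knockout over knockout + PJ34, and the median ratio of wild type over knockout was 1. The 3 were Psmb8 (0.508) and Tapbp (0.554) lower and Psmb10 (1.94) higher, against 4 lower by height. Most of these genes are covered whole in every library, so length cannot separate them. By covered length Tap2 reversed, with a ratio of 1.18 for wild type over knockout against 0.561 by height. With fold limits of 1.2 and 0.83 the count for knockout over knockout + PJ34 was 4 of 9 (3 lower and 1 higher) against 2. Of all genes 48.7% passed, 15.4% lower and 33.3% higher. With these narrow limits it was 5 of 9, all lower, for wild type over wild type + PJ34. There 45.5% of all genes passed, 27.5% lower and 18.0% higher. The narrow limits were then used for high genes only, set here as heights above the median. For wild type over knockout 7 of 9 passed (6 lower and 1 higher), where 16.9% of all genes were lower and 20.1% higher. In the pair treated with PJ34 it was 3 of 9, all lower. Of all genes 38.9% passed there, 9.73% lower and 29.2% higher. For wild type over wild type + PJ34 it was 5 of 9, all lower. There 31.4% of all genes passed, 17% lower and 14.4% higher. For knockout over knockout + PJ34 it was 3 of 9 (2 lower and 1 higher). There 30.5% of all genes passed, 8.61% lower and 21.9% higher.

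Scaling the libraries raised the counts for the pair treated with PJ34 from 2 to 3, all lower in wild type + PJ34, and for knockout over knockout + PJ34 from 2 to 3, with 2 lower and 1 higher against 1 and 1. Over all genes it changed the share of lower ones among genes past the limits from 20.4% to 49.4% in the treated pair, from 29.5% to 54.8% for knockout over knockout + PJ34 and from 60.3% to 49.9% for wild type over wild type + PJ34. Adding the AI451557 row as Nlrc5, an alternative chosen after seeing the data, gave a count of 7 and a median of 0.593 for wild type over knockout. No paired analysis was possible because each condition has 1 library.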

Other observations

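At H2-K1, H2-D1 and Tap2 the highest point of the own interval lay downstream in wild type, at 4717 bp, 5306 bp and 5914 bp from the start of the gene, and near the start in wild type + PJ34, knockout and knockout + PJ34. The other genes did not show this. At B2m it lay near the start in all 4 libraries, and the interval over Psmb9, Tap1 and Psmb8 peaked near a start of Psmb8 in all 4. At Tapbp it lay past the end of the gene in all 4. At Psmb10 it lay 660 bp from the start in wild type and 1583 bp past the end in knockout. The own heights of H2-K1, H2-D1 and Tap2 were 11 to 22 in wild type, so that a few fragments can decide the position, and its error was not estimated.

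The limits are those of 1 library per condition. Heights between 9 and 71 leave ratios with wide counting intervals, neighbours share values within an active region, and short reads cannot be placed over much of H2-K1 and H2-D1.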
